A study of Homo sapiens with 50 samples.

Results

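Solute carrier (SLC) genes encode membrane proteins that move amino acids, sugars, ions, nucleotides, vitamins and metabolites across the plasma membrane and across the membranes of organelles. The genes described here are the entries of the authors' list of genes with a mapped pause site whose gene is protein coding and has a symbol made of SLC, digits, a letter and digits. The list holds 6481 entries, of which 5822 received a RefSeq symbol by position, and 120 of these are SLC genes. They belong to 39 of the 56 SLC families. By family number, 21 are amino acid transporters, 19 sugar and nucleotide sugar transporters, 26 ion transporters and 23 carriers of the SLC25 family, and 31 belong to families with other substrates. The substrate of a single member can differ from that of its class.

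The study addressed how the elongation factor SPT6 acts in the release of paused RNA polymerase II (Pol II) and in recruiting the PAF1 complex. Its 50 chromatin immunoprecipitation sequencing libraries came from DLD-1, a human colorectal adenocarcinoma line that constitutively expresses OsTIR1, the plant protein that directs auxin-inducible degron (AID) tagged proteins to degradation. The lines were SPT6-AID, PAF1-AID, SPT6-AID/PAF1-AID, SPT6-AID/NELF-C-AID and the parental OsTIR1 line, treated with vehicle for 2 h or with 500 µM auxin for 0, 2 or 6 h, in 32 groups of which 18 had 2 libraries and 14 had 1. Both files used here are lists for the whole series, one of gene intervals and one of 1 pause site for each of the same genes, with no value for any library, so none of the library signal enters. There is therefore no replicate error on any value below, no comparison of lines or treatments, and no test; counts, quartiles and medians are set beside those of the other entries as a description.

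Promoter-proximal pausing is a halt of Pol II shortly after it starts a transcript, held by factors such as NELF and DSIF until the kinase P-TEFb releases the polymerase into the gene. Where the halt lies is commonly described by its distance from the start of transcription. Transporter genes of this superfamily include both genes that nearly every cell uses, such as those of mitochondrial carriers, and genes that serve 1 tissue, such as those of kidney, liver and synapses. The pause distance used here is the number of bp from a gene's listed 5′ end to its listed pause site along the strand, so that 0 would place the site on the first listed base.

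The sequence around the listed site could be read for 37 SLC genes, those whose site falls inside a window of the RefSeq promoter table, 250 bases before to 50 after a gene start (GRCh38.p14, which shares its primary coordinates with hg38, the build of the authors' lists). Their distances ran from 13 to 188 bp with a median of 46 bp, so genes with distant sites are under-represented among them. The lines below give 30 bases on the gene's strand, 5′ to 3′, with the listed pause base and the base after it in capitals. They show the glucose transporter gene SLC2A1, the leucine transporter gene SLC7A5, the creatine transporter gene SLC6A8, the lactate exporter gene SLC16A3, the zinc transporter gene SLC30A4, the Golgi CMP-sialic acid transporter gene SLC35A1, the mitochondrial glycine carrier gene SLC25A38, and the neighbouring glutamine transporter genes SLC38A2 and SLC38A1. SLC1A3, SLC22A5 and SLC43A2 are shown because the base after their site is not C.

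SLC2A1, chr1:42958820-42958849, minus strand, 34 bp: cagcgagcgtgccggTCgctagtcgcgggt
SLC7A5, chr16:87869465-87869494, minus strand, 28 bp: cggcgggcggcgcgcACactgctcgctggg
SLC6A8, chrX:153687943-153687972, plus strand, 31 bp: gagcgaggtggcgagTCgctgagcccgccg
SLC16A3, chr17:82229061-82229090, plus strand, 31 bp: ggcgagaggcggcgaGAggcgggctgaggc
SLC30A4, chr15:45522710-45522739, minus strand, 31 bp: cctccagcagcgggcGCggcgggcgcgagc
SLC35A1, chr6:87473017-87473046, plus strand, 55 bp: gaggtgagaactgggTCtgctgggagtggg
SLC25A38, chr3:39383447-39383476, plus strand, 61 bp: aggatgggcaggagaGCagagccgcggagt
SLC38A2, chr12:46372701-46372730, minus strand, 58 bp: gctagcagcagcccgACcacgcgttaccgc
SLC38A1, chr12:46268888-46268917, minus strand, 141 bp: cccagtaggagaatgACtccgattcgtgac
SLC1A3, chr5:36606781-36606810, plus strand, 179 bp: cacttctctgccgatGTattttgccttcca
SLC22A5, chr5:132369973-132370002, plus strand, 188 bp: atgcgggactacgacGAggtgaccgccttc
SLC43A2, chr17:1628798-1628827, minus strand, 24 bp: gccgggcgggcccgaCAcacgccggaggag

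The base after the listed site was C in 29 of the 37 SLC genes (78.4%) and G in 0 of them. Among the 1964 other entries whose site could be read, 86.5% had C there and 0.356% had G. The direction turned among genes with a listed start within 50 bp of RefSeq, where 25 of 27 SLC genes (92.6%) had C, beside 87.2% of 1263 other entries. SLC16A3, with A in that place, and SLC43A2, also with A, are among the 8 SLC genes without C. The C stood in the same place on both strands over all entries read, in 86.8% of plus-strand and 85.9% of minus-strand sites. The sources used here do not say whether the list marks the paused base or the base before it, so every distance may be off by 1 bp. Among SLC genes with a site up to 100 bp from the 5′ end, 27 of 32 (84.4%) had C after it, beside 86.8% of other entries. Of the 5 SLC genes with a more distant site, 2 (40%) had C, SLC4A8 and SLC38A1, beside 83.1% of other entries, and with 5 genes this share is a bare count. The listed base itself was G in 17 of 37 (45.9%) and in 48.8% of the other entries. The base before it was G in 51.4% of SLC genes and in 41.5% of other entries.

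The authors' list held 120 of the 379 protein-coding SLC genes in RefSeq (31.7%). Of all 20037 protein-coding genes, 29.1% were listed, so the SLC share lay near the background. The shortest entry of the list spans 3005 bp. Among the 365 SLC genes at least that long 32.9% were listed, beside 32.2% of other coding genes of that length. Among the 233 that are also more than 1000 bp from any other coding gene, 102 were listed (43.8%), beside 42.0% of other such genes.

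The classes differed in how many of their genes were listed. SLC25 carriers sit mostly in the inner mitochondrial membrane and exchange nucleotides, phosphate, amino acids and metabolites between matrix and cytosol. Of 48 SLC25 genes 23 were listed (47.9%), and of the 24 long ones without a close coding neighbour 18 were (75%). Amino acid transporters followed with 21 of 60 (35.0%), sugar transporters with 19 of 65 (29.2%), ion transporters with 26 of 94 (27.7%) and other substrates with 31 of 112 (27.7%). Among long genes without a close coding neighbour the order of the other classes changed, with 46.3% of sugar, 43.9% of amino acid, 38.4% of other-substrate and 35.2% of ion transporters listed. The sources used here do not give the rule by which genes entered the list.

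**Figure D1:**
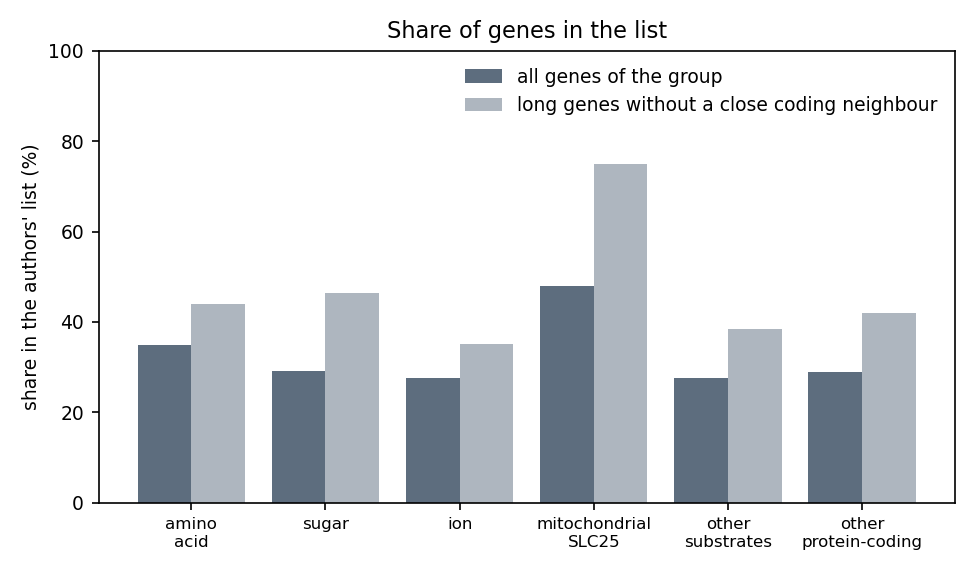
Share of genes present in the authors' list (vertical axis, %) for each SLC class and for all other protein-coding genes. Dark bars take all genes of a group and light bars the genes of 3005 bp or more with no coding gene within 1000 bp; the SLC25 carriers reach 47.9% and 75%, and the other protein-coding genes 29.0% and 42.0%.

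By family, 15 families had 3 or more listed members. All 3 genes of SLC41, magnesium transporters, were listed, as were 4 of 7 of SLC1 (glutamate and neutral amino acids), 7 of 14 of SLC16 (monocarboxylates), 5 of 10 of SLC30 (zinc efflux) and 4 of 9 of SLC12 (cation and chloride cotransport). Of the 21 SLC22 organic ion transporter genes 3 were listed, and of the 19 SLC6 genes, which include the neurotransmitter transporters, 3. The share over all coding genes was 29.1%, and in families this small the numbers are bare counts. In 17 families no gene was listed by name. These include SLC5 with 12 genes (sodium-coupled glucose and other solutes), SLC13 with 5 (sulphate and carboxylates), SLC24 with 5 and SLC8 with 4 (both sodium and calcium exchangers).

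Transporters of the intestinal epithelium were counted because of the labelled cell type. Of 20 such genes 4 (20%) were listed, below the 29.1% of all coding genes, and of the 14 long ones without a close coding neighbour 28.6% were, beside 42.0% of all coding genes of that kind. The 4 were SLC16A1 (monocarboxylates, 33 bp), SLC12A2 (NKCC1, sodium, potassium and chloride, 39 bp), SLC9A2 (sodium and proton exchange, 47 bp) and SLC26A2 (sulphate, 53 bp). SLC26A3, the chloride and bicarbonate exchanger of mature colonocytes, SLC5A1, the intestinal glucose transporter, and SLC15A1, the peptide transporter, were not listed by name. Of 20 transporters typical of kidney, liver, neurons and other tissues 0 were listed. Presence in the list is not an expression level, and several of the 4 listed genes are used by many cell types. Both sets of 20 were written down with earlier results of these data known, so these counts are no check of the cell type.

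The pause distance of the 120 SLC genes had a median of 58.5 bp, with quartiles of 42.0 and 114.5 bp and a range of 3 to 289 bp. For the 6361 other entries the median was 52 bp, with quartiles of 38 and 83 bp and a range of 0 to 299 bp. The upper quartiles lay further apart than the medians and the lower quartiles. Distances above 52 bp were found in 76 SLC genes (63.3%), beside 48.9% of the other entries. The mean was 88.6 bp for SLC genes and 70.8 bp for the others.

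Distances over 100 bp were found in 34 of the 120 SLC genes (28.3%), while 18.7% of all entries were past that distance. For distances of 200 bp or more the count was 12 (10.0%), beside 5.32% of all entries. The band from 20 to 60 bp held 59 SLC genes (49.2%), beside 53.4% of all entries. Under 20 bp lay 5 SLC genes (4.17%), beside 7.08% of all entries. This share depends on the naming. With names by either end of the gene, a rule chosen after seeing the data, it was 6.06% of 132 genes. Each of these shares is a description of 1 list, and none was tested.

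**Figure D2:**
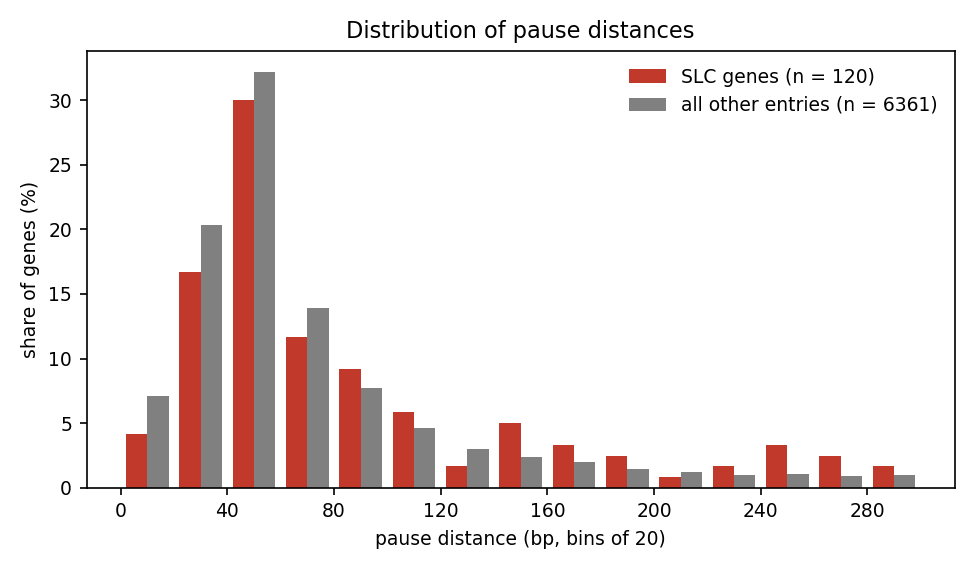
Share of genes (vertical axis, %) by pause distance in bins of 20 bp (horizontal axis), for the 120 SLC genes and the 6361 other entries. In both groups the bin from 40 to 59 bp is the fullest, with 30.0% of SLC genes and 32.2% of the others; 8 of the 10 bins from 100 bp upward hold a larger share of the SLC genes.

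Among the 5 shortest distances were those of SLC35D3 (3 bp, pause site chr6:136921685), an orphan of the nucleotide sugar transporter family, and SLC4A11 (4 bp, chr20:3239186), a transporter of the bicarbonate family. Among them were also SLC35A3 (13 bp, chr1:99970034), the Golgi UDP-N-acetylglucosamine transporter, and SLC7A2 (13 bp, chr8:17497101), a cationic amino acid transporter. The listed 5′ end lay 619 bp upstream of the outermost RefSeq start for SLC35D3, and 369 bp downstream of it for SLC4A11 and 3019 bp for SLC7A2. The distance of such a gene depends on which start the list uses.

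The 5 longest belonged to SLC7A11 (289 bp, chr4:138242060), the cystine and glutamate exchanger, SLC29A2 (284 bp, chr11:66371463), a nucleoside transporter, SLC27A4 (277 bp, chr9:128340832), a fatty acid transport protein, SLC22A15 (276 bp, chr1:115976592), an organic ion transporter, and SLC67A1 (271 bp, chr11:2902604). The other genes at 200 bp or more included SLC35B1 (255 bp), SLC25A24 (254 bp), the ATP-Mg and phosphate carrier, SLC6A20 (244 bp), the proline transporter, SLC12A8 (233 bp), SLC27A2 (226 bp) and SLC16A9 (209 bp). Of the 12 genes at 200 bp or more, 7 had a listed 5′ end within 50 bp of the outermost RefSeq start. SLC7A11, SLC6A20 and SLC25A24 started on the very same base as RefSeq.

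The agreement of the listed 5′ end with RefSeq bears on every distance. It fell on the same base in 27 SLC genes (22.5%), beside 25.9% of other named entries, and within 50 bp in 58.3%, beside 64.1%. It lay more than 300 bp downstream of the outermost start in 25.8%, beside 20.2%. Among the 70 SLC genes within 50 bp, 27.1% had a distance over 100 bp, beside 16.4% of 3656 other entries, with medians of 58 and 51 bp. Among the 38 within 10 bp the share was 23.7%, beside 16.2% of 2287 others, with medians of 55.5 and 51 bp. Among the 50 more than 50 bp away it was 30.0%, beside 21.7%. Among the 27 on the same base it was 18.5%, beside 16.9% of 1476 others, with medians of 54 and 51 bp. The SLC share was the larger in each of these subsets, and nearly equal to that of the others in the 27 genes that start on the RefSeq base.

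The share of SLC genes past 100 bp also differed by strand and by gene length. Of 57 plus-strand SLC genes 22 (38.6%) had a distance over 100 bp, and of 63 minus-strand genes 12 (19%). The other entries had 18.5% on each strand. At 200 bp or more the order of the strands was the opposite, with 5 plus-strand (8.77%) and 7 minus-strand SLC genes (11.1%). The other entries had 5.09% and 5.39% there. Among SLC genes over 80 kb long 10 of 25 (40%) were past 100 bp, among those of 40 to 80 kb 11 of 32 (34.4%), among those of 15 to 40 kb 7 of 38 (18.4%), and among those under 15 kb 6 of 25 (24.0%). In the other entries the shares were 18.4%, 17.4%, 17.8% and 20.4% in the same order. The median distances of the SLC genes, again in that order, were 60, 65, 55 and 60 bp, without a steady trend. Those of the other entries were 51, 52, 51 and 53 bp. SLC genes spanned a median of 38055 bp, from 3979 bp for SLC35D3 to 446740 bp for the zinc transporter gene SLC39A11, beside a median of 35471 bp for the others.

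Among the 21 amino acid transporter genes the median distance was 89 bp, with quartiles of 39 and 168 bp, and 8 (38.1%) were past 100 bp, beside 18.7% of all entries. The class ran from SLC7A2 at 13 bp over SLC38A10 at 89 bp (chr17:81295210) to SLC7A11 at 289 bp. Its genes fell on both sides of a gap between 97 bp, for SLC36A4, and 141 bp, for SLC38A1, with no gene in between. In the subset of 10 whose listed start lies within 10 bp of RefSeq, the median was 51 bp, so the class median depends on which members are taken.

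The SLC1 family carries glutamate and neutral amino acids. Its neutral amino acid transporter gene SLC1A5, the main glutamine importer of many tumour cells, had its pause site at 44 bp (chr19:46788550). The other neutral transporter gene SLC1A4 stood at 168 bp (chr2:64989567), and the glutamate transporter genes SLC1A3 and SLC1A1 at 179 and 192 bp. In the SLC38 family of sodium-coupled neutral transporters, SLC38A9, a lysosomal arginine sensor of the mTORC1 pathway, stood at 32 bp. SLC38A2 stood at 58 bp (chr12:46372715), SLC38A10 at 89 bp, SLC38A7 at 96 bp and SLC38A1 at 141 bp (chr12:46268902). SLC38A1 and SLC38A2 lie in tandem on chromosome 12 with 89144 bp between their entries, and both listed starts are the RefSeq starts.

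In the SLC7 family the light subunit genes SLC7A5 (28 bp, chr16:87869479) and SLC7A8 (42 bp), both for large neutral amino acids, and SLC7A2 (13 bp) stood near the 5′ end. The arginine and lysine transporter gene SLC7A1 stood at 184 bp (chr13:29595463) and SLC7A11 at 289 bp. SLC3A2, the heavy subunit that pairs with SLC7A5, SLC7A8 and SLC7A11, had its site at 64 bp (chr11:62880960), from a listed start 24787 bp downstream of the outermost RefSeq start. Partners of 1 transporter thus had sites at 28 and 64 bp, and at 289 and 64 bp. In SLC6 the creatine transporter gene SLC6A8 stood at 31 bp, the taurine transporter gene SLC6A6 at 147 bp and SLC6A20 at 244 bp. The leucine transporter genes SLC43A2 and SLC43A1 stood at 24 and 39 bp.

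**Figure D3:**
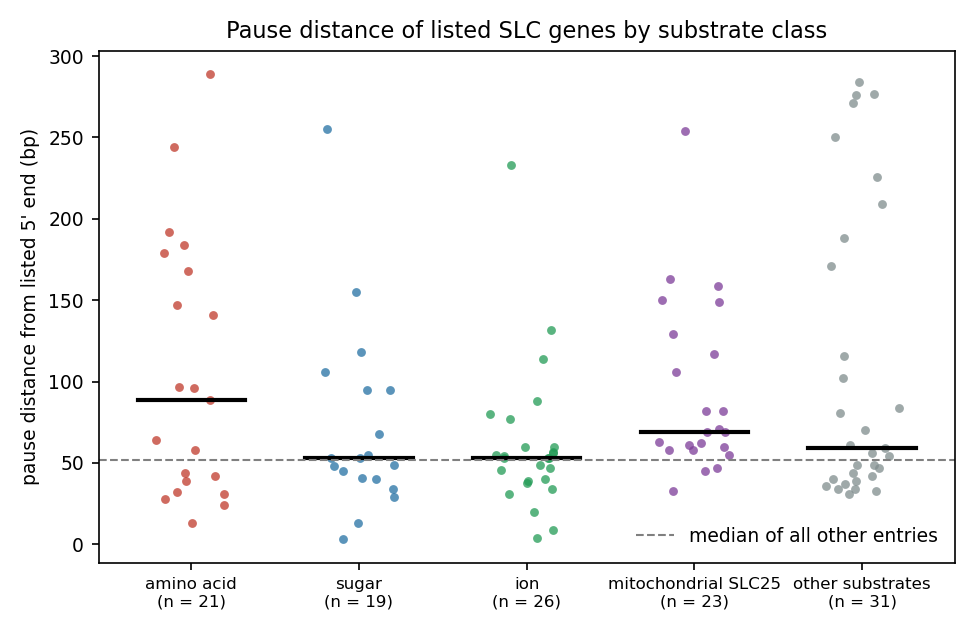
Pause distance in bp (vertical axis) of each of the 120 listed SLC genes by substrate class; each point is 1 gene, black lines are class medians and the dashed line is the median of all other entries, 52 bp. The ion class is gathered between 4 and 132 bp apart from SLC12A8 at 233 bp, and the amino acid and other-substrate classes spread up to 289 and 284 bp.

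Among the 19 genes of sugar and nucleotide sugar transporter families the median was 53 bp, with quartiles of 40.5 and 95 bp. Past 100 bp lay 4 of the 19 (21.1%), near the 18.7% of all entries. This rests on taking SLC35 into the class. In the 8 genes of SLC2, SLC37 and SLC45 alone the median was 60.5 bp. Of these, SLC37A1, SLC2A10 and SLC2A11 were past 100 bp. The facilitated glucose transporter genes SLC2A1 and SLC2A3, GLUT1 and GLUT3, stood at 34 bp (chr1:42958834) and 49 bp (chr12:7936138). SLC2A8 stood at 53 bp (chr9:127397254), the middle of the class, SLC2A10 at 118 bp and SLC2A11 at 155 bp. The first 3 have listed starts within 50 bp of RefSeq, while those of SLC2A10 and SLC2A11 lie 1309 and 951 bp downstream of the outermost start.

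Many members of the SLC35 family bring nucleotide sugars into the Golgi and endoplasmic reticulum for glycosylation. The 11 listed genes of the family had a median of 45 bp, with 10 of them between 3 and 95 bp. The CMP-sialic acid transporter gene SLC35A1 stood at 55 bp and the GDP-fucose transporter gene SLC35C1 at 95 bp. SLC35B1 of the endoplasmic reticulum stood at 255 bp (chr17:49707915), with a listed start 27 bp from that of RefSeq. SLC37A3 and SLC37A1, of the sugar phosphate family, stood at 68 and 106 bp.

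Among the 26 ion transporter genes the median was 53 bp, with quartiles of 39.25 and 60 bp. Of these 18 (69.2%) lay between 20 and 60 bp, beside 53.4% of all entries, and 3 (11.5%) lay past 100 bp, namely SLC4A8 (114 bp), a sodium-coupled bicarbonate transporter, SLC39A10 (132 bp), a zinc importer, and SLC12A8 (233 bp, chr3:125212513). The listed starts of SLC4A8 and SLC39A10 lie 33363 and 44292 bp downstream of the outermost RefSeq start. SLC26A2 at 53 bp (chr5:149960967) was the middle gene of the class.

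The sodium and proton exchanger genes SLC9A2 and SLC9A8 stood at 47 and 49 bp. The potassium and chloride cotransporter genes SLC12A4 and SLC12A7 stood at 34 and 53 bp and the bicarbonate transporter genes SLC4A3 and SLC4A7 at 40 and 46 bp. SLC20A1, a phosphate transporter, stood at 38 bp. Of the zinc efflux genes, SLC30A4 stood at 31 bp, SLC30A5, SLC30A9 and SLC30A6 at 53, 54 and 57 bp, and SLC30A1, the exporter of the plasma membrane, at 80 bp. SLC30A5 and SLC30A6, whose products form a heterodimer in the early secretory pathway, differed by 4 bp in position. The magnesium transporter genes SLC41A1, SLC41A3 and SLC41A2 stood at 55, 60 and 77 bp. Over the families of metal ion transporters together, 12 of 32 genes were listed (37.5%, beside 29.1% of all coding genes). Their median was 58.5 bp, and 1 (8.33%) was past 100 bp, beside 18.7% of all entries.

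Among the 23 SLC25 carrier genes the median was 69 bp, with quartiles of 59 and 123 bp. In 20 of the 23 (87.0%) the site lay above 52 bp, the median of the other entries, beside 48.9% of those entries. In 0 of the 23 it lay under 20 bp, beside 7.14% of the other entries. Both shares rest on the naming rule. The unnamed entries that overlap SLC25A51, SLC25A23 and SLC25A29 have listed starts within 50 bp of RefSeq. Their sites lie at 5, 15 and 38 bp, all below 52 bp. With names by either end, a rule chosen after seeing the data, the median of 26 SLC25 genes was 66 bp. Past 100 bp lay 8 (34.8%), beside 18.7% of all entries. The class ran from SLC25A14 (33 bp, chrX:130339987) over SLC25A30 (69 bp, chr13:45418312) to SLC25A24 (254 bp, chr1:108200089). In the 8 with a listed start within 10 bp of RefSeq the median was 128 bp, and in the 17 within 50 bp it was again 69 bp.

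By role, the ADP and ATP exchanger gene SLC25A4 stood at 47 bp and the aspartate and glutamate carrier genes SLC25A12 and SLC25A13 at 45 and 55 bp. The phosphate carrier gene SLC25A3 stood at 106 bp (chr12:98593796) and the dicarboxylate carrier gene SLC25A10 at 150 bp (chr17:81712436). The glycine carrier gene SLC25A38 stood at 61 bp and the glutathione carrier gene SLC25A39 at 60 bp, while the mitochondrial iron importer genes SLC25A28 and SLC25A37 stood at 71 and 163 bp. The ornithine carrier gene SLC25A15 stood at 69 bp, the carnitine and acylcarnitine carrier gene SLC25A20 at 62 bp, and the S-adenosylmethionine carrier gene SLC25A26 at 82 bp. The pyrimidine nucleotide carrier genes SLC25A33 and SLC25A36 stood at 117 and 149 bp. SLC25A17, whose product works in peroxisomes, stood at 159 bp, and SLC25A46, of the outer mitochondrial membrane, at 63 bp.

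The 31 genes of other families had a median of 59 bp, with quartiles of 41 and 179.5 bp, and ran from SLC16A3 (31 bp, chr17:82229076) over SLC60A2 (59 bp, chr6:111259416) to SLC29A2 at 284 bp. SLC60A2, with the synonym NaGLT1, and the sialic acid exporter gene SLC17A5 are in this class by family number. Of the 31 genes 11 (35.5%) were past 100 bp, beside 18.7% of all entries, and 7 (22.6%) lay at 200 bp or more, beside 5.32%. The lactate transporter genes SLC16A3 and SLC16A1 stood at 31 and 33 bp (chr1:112956163). The nucleoside transporter genes SLC29A1 and SLC29A2 stood at 49 bp (chr6:44223644) and 284 bp. The choline transporter-like genes SLC44A2 and SLC44A3 stood at 34 and 36 bp, the fatty acid transport protein genes SLC27A2 and SLC27A4 at 226 and 277 bp, and the thiamine transporter gene SLC19A2 at 39 bp. Some families thus had their listed members close together and others far apart. In SLC22 all 3 listed genes were past 100 bp, SLC22A4 (ergothioneine) at 116 bp, SLC22A5 (carnitine) at 188 bp and SLC22A15 at 276 bp, and the first pair are tandem neighbours 25609 bp apart. The listed starts of SLC22A4 and SLC22A15 lie 474 and 197 bp upstream of the outermost RefSeq start, so these distances depend on the start used.

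**Figure D4:**
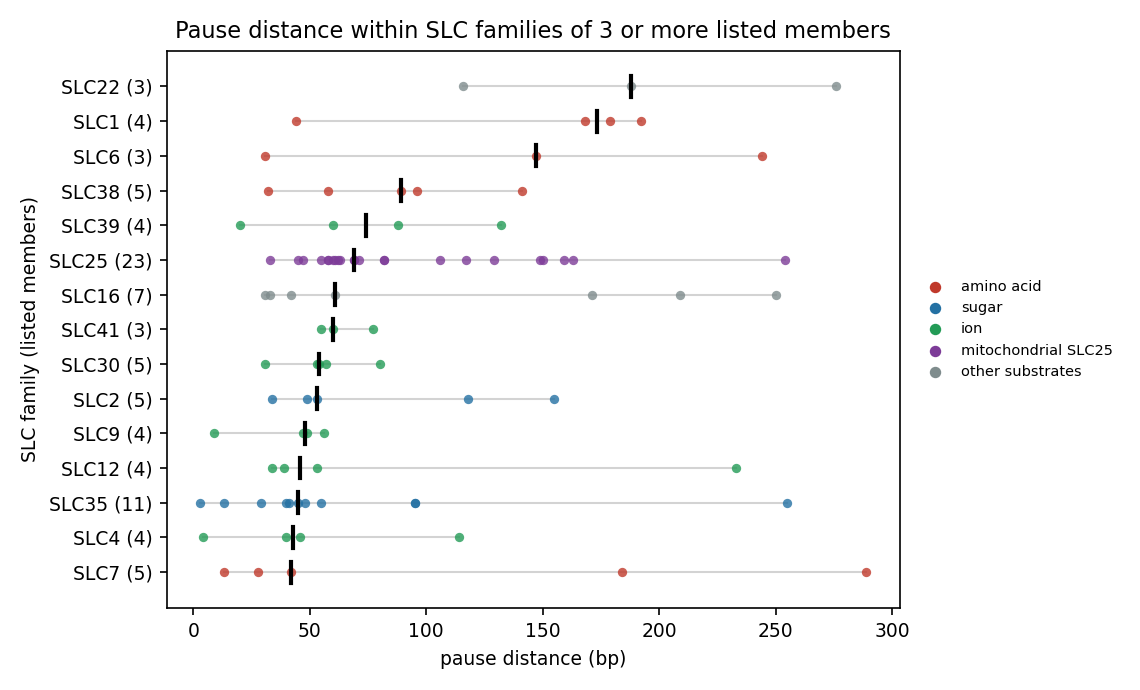
Pause distance in bp (horizontal axis) of the listed genes of the 15 SLC families with 3 or more listed members (vertical axis, number of members in brackets); points are genes, coloured by substrate class, black ticks are medians and grey lines span the range. Medians run from 42 bp in SLC7 to 188 bp in SLC22, and the range within SLC7 is 13 to 289 bp.

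Nutrient transporters that proliferating cancer cells are known to rely on made up a list of 20 genes, of which 13 (65%) were in the authors' list, beside 29.1% of all coding genes. Their median distance was 49 bp and 4 of the 13 (30.8%) were past 100 bp, beside 18.7% of all entries, namely SLC25A3, SLC38A1, SLC25A10 and SLC7A11. The other 9 lay between 28 bp for SLC7A5 and 64 bp for SLC3A2. Among the 7 not listed by name are SLC6A14, SLC19A1 and the ADP and ATP exchanger genes SLC25A5 and SLC25A6. Of the 20, 2 are shorter than the shortest entry, and all 12 long ones without a close coding neighbour were listed, beside 42.0% of other coding genes of that kind. The list was written down with earlier results of these data known, so these shares are no independent comparison.

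ATF4 is a transcription factor that raises amino acid import under amino acid shortage. Of 10 transporter genes known as its targets 8 were listed (80%, beside 29.1% of all coding genes) and SLC6A9 and SLC7A3 were not. Their distances were 28 bp (SLC7A5), 39 bp (SLC43A1, chr11:57515663), 44 bp (SLC1A5), 58 bp (SLC38A2), 64 bp (SLC3A2), 168 bp (SLC1A4), 184 bp (SLC7A1) and 289 bp (SLC7A11). Their median was 61 bp, and 3 of 8 (37.5%) were past 100 bp, beside 18.7% of all entries. Lysosomal transporters gave 7 of 13 genes in the list (53.8%, beside the same 29.1%), from SLC38A9 at 32 bp to the sialic acid exporter gene SLC17A5 at 102 bp, with a median of 56 bp. The members of all these lists were written down with earlier results of these data known. The nutrient and ATF4 lists share SLC7A5, SLC1A5, SLC38A2, SLC3A2 and SLC7A11, so their shares are not separate results.

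Other transporter classes were set beside the SLC genes. Of 45 genes with an ABC symbol, 13 were listed (28.9%, beside 29.1% of all coding genes). Many ABC products use ATP to pump lipids, drugs and peptides. The 13 include ABCF1, ABCF2 and ABCF3 (41, 39 and 70 bp), whose products are not membrane pumps. The median of the 13 was 39 bp and the range 25 to 90 bp, and 0 were past 100 bp, beside 18.7% of all entries. Of 62 genes of ATP-driven ion pumps 28 were listed (45.2%, beside the same 29.1%), with a median of 52.5 bp. Of these 28, 3 (10.7%) were past 100 bp, beside the same 18.7%. Of 11 genes of the organic anion transporters named SLCO 1 was listed, SLCO2A1 at 20 bp, and of 11 aquaporin genes 1, AQP11 at 58 bp. Each is a share of 9.09%, beside the same 29.1% of all coding genes. The SLC genes had 28.3% past 100 bp. With 13 and 28 genes in the other classes, and no test, this difference is given as counts.

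**Figure D5:**
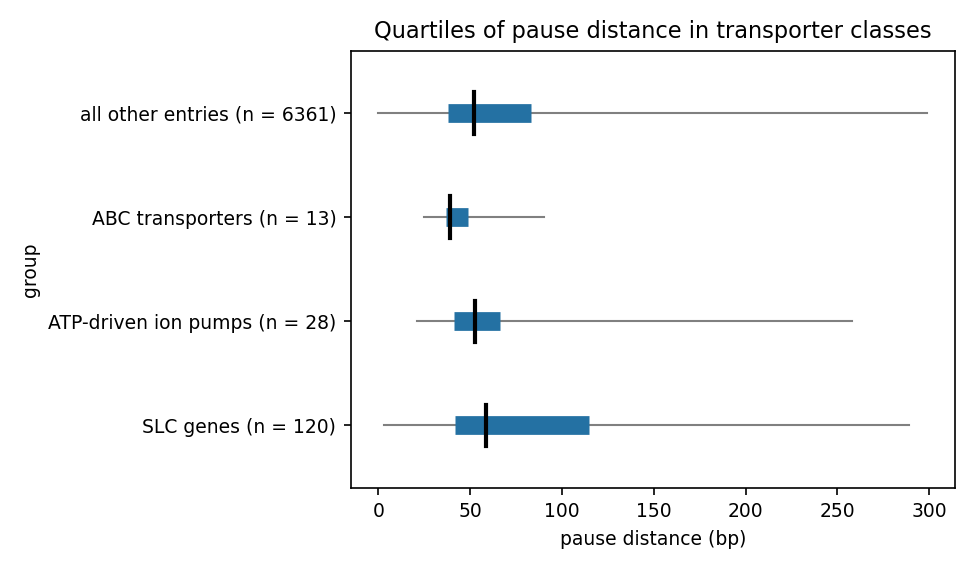
Pause distance in bp (horizontal axis) of listed SLC genes, ATP-driven ion pumps, ABC transporters and all other entries (vertical axis); bars span the quartiles, black ticks are medians and grey lines span the whole range. The upper quartile is 114.5 bp for SLC genes, 66.5 bp for pumps, 49 bp for ABC transporters and 83 bp for the other entries.

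In 116 of 120 SLC genes the pause site fell inside the RefSeq gene, beside 5508 of 5702 other named entries, a like share. In the other 4 SLC genes, SLC35D3, SLC9A2 and SLC22A4 among them, it fell upstream. In these named genes the listed 5′ end lay 619, 264 and 474 bp before the outermost RefSeq start. Another RefSeq gene covered the site in 13 SLC genes (10.8%), beside 12.9% of other named entries. RefSeq promoter windows of the same gene, at any position, gave a strand for 98 SLC genes. Of these 98, 15 (15.3%) had a divergent start within 1000 bp, beside 18.3% of 4711 other named entries. The nearest listed entry was at least 1651 bp away, with a median of 53236 bp. SLC9A2 and SLC67A2 face each other tail to tail 3274 bp apart, with sites at 47 and 49 bp.

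Promoter windows of 300 bases, 250 before to 50 after the start, were available from the RefSeq table for 73 SLC genes and for 4095 other entries with a start within 50 bp of the listed one. Motifs were searched on both strands, except the TATA box on the gene's strand only from 45 to 15 bases before the start. A match is a description of letters and not of binding. The lines below give the 120 bases before the start, 5′ to 3′ on the gene's strand, with matches in capitals. They show SLC2A1 as the only SLC window with a TATA box, SLC25A46 and SLC25A26 for their ETS and E-box letters, and SLC30A1 as a zinc exporter gene with letters of a metal response element (MRE).

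SLC2A1, chr1:42958869-42958988, minus strand: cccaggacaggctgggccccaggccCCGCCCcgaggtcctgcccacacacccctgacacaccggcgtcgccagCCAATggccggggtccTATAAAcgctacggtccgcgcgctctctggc
SLC25A46, chr5:110738887-110739006, plus strand: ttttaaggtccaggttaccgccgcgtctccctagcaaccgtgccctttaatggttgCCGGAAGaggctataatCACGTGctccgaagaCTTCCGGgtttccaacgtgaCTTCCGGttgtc
SLC25A26, chr3:66220881-66221000, plus strand: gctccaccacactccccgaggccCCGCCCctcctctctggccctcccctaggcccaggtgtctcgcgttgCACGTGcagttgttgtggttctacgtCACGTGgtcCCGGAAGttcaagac
SLC30A1, chr1:211579162-211579281, minus strand: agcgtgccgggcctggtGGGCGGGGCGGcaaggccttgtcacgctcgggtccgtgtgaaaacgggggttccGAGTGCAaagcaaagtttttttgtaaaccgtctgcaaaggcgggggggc

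TATAAA occurred in 1 of 73 SLC windows (1.37%), 1.39% of other listed windows and 3.1% of 22199 windows of coding genes. In SLC2A1 it began 31 bases before the start. The GC box GGGCGG occurred in 60 SLC windows (82.2%), beside 79.3% and 56.3% in the same order, and CCAAT in 31 (42.5%), beside 37.0% and 34.7%. The median content of G and C was 69.3% in SLC windows and 67.3% in the others. It ran from 50% in SLC1A3 to 82.7% in SLC16A3. SLC windows with a distance over 100 bp had a median of 71.7% and those up to 100 bp 68.7%, while in the other entries the order was the opposite, with 66.8% and 67.7%.

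The ETS letters CCGGAAG occurred in 14 SLC windows (19.2%), beside 20.7% of other listed windows and 12.8% of coding windows. Counted by class after the matches had been seen, 8 of the 14 were among the 16 SLC25 windows (50%), including SLC25A4, SLC25A14, SLC25A20 and SLC25A46. The E-box CACGTG, known to be bound by MYC and TFEB, occurred in 13 (17.8%), beside 10.3% and 8.34%, and 5 of these were SLC25 windows. The others included SLC7A5, SLC43A1 and SLC20A1. The MRE letters TGCACNC or TGCGCNC occurred in 32 (43.8%), beside 42.8% and 33.8%, a share near that of the other listed genes.

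The letters TGATGNAA, the core bound by ATF4 with C/EBP partners, occurred in 3 SLC windows (4.11%), beside 0.952% and 2.69%. They were SLC1A4 and SLC7A1, both among the ATF4 targets, and SLC39A11. The windows of the ATF4 targets SLC7A5, SLC43A1, SLC1A5, SLC38A2 and SLC3A2 did not hold these letters, and SLC7A11 had no window. The NRF1 core GCATGCGC occurred in 3 (4.11%), SLC2A11, SLC35B3 and SLC60A2, beside 6.08% and 3.74%, and the YY1 core AAGATGGCG in 2 (2.74%), SLC17A5 and SLC25A3, beside 5.13% and 2.41%. At the listed start itself, the base before and the first base read CA in 44 of 81 SLC genes (54.3%), beside 51.8% of other entries, and a pyrimidine followed by a purine in 86.4%, beside 86.6%.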

How the data were processed

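The authors deposited 2 lists of 6481 rows for the whole series, gene intervals and pause sites of 1 bp, as hg38 coordinates per the file names and the submitters' processing notes. These notes name hg38, mm10, cutadapt 1.14, Bowtie2 2.2.6 and deepTools 3.1.1. Per the labels' protocols, fixation took 10 min in 1% paraformaldehyde and the spike-in was fixed mouse embryonic fibroblasts. The calling of sites, the selection of genes and the reads behind them are not given in the sources used here, and depth is therefore unknown.

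The lists were joined by Ensembl identifier, and positions were made 1-based. The lists give no symbols and the RefSeq table (GRCh38.p14) holds 0 Ensembl identifiers, so names came from position. An entry took a symbol when exactly 1 RefSeq gene ended within 50 bp of its 3′ end and covered at least 50% of it. The table gives no exons, so none were assigned. Substrate classes follow family numbers. The members and lists were chosen with earlier results of these data known. Any SLC gene could be named with its distance. Positions were given for the 5 shortest and 5 longest, the shortest, middle and longest of each class, and the listed genes of the nutrient and ATF4 lists. Some of these genes are not reported here. Python 3.11.15, NumPy 2.4.6, pandas 2.3.3, SciPy 1.17.1 and matplotlib 3.10.9 were used, and the naming was checked on simulated data.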

Additional observations from a re-analysis of the deposited data

How the results depend on the processing

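No paired analysis was possible because the lists hold no value per library. Of 50 recomputed main values 44 lay inside a 95% interval of the main value and 6 lay outside it. The interval treats genes as independent draws, is no replicate error, and is wide for small classes. For the amino acid median of 89 bp it ran from 39 to 168 bp, so that 51 bp counted as inside. Among the 6 outside, the share of SLC genes listed, 31.7%, became 43.8% among long genes without a close coding neighbour. The mean distance was 88.6 bp for SLC genes and 60.8 bp for the ion class, beside medians of 58.5 and 53 bp. With listed starts within 10 bp of RefSeq, the SLC25 median was 128 bp (8 genes, from 69 bp) and the share under 20 bp was 0.0% of 38, from 4.17%. With starts within 50 bp, C followed 92.6% of 27 sites, from 78.4%, which turns its order against the other entries (87.2%, from 86.5%). Naming by a reciprocal overlap of 80% gave 113 SLC genes, 106 of them shared, with a median of 58 bp and 30.1% past 100 bp. Naming by either end, chosen after seeing the data, gave 132 with 27.3% past 100 bp and 6.06% under 20 bp. The cause of these shifts was not tested, beyond the different genes each setting takes. Without read depth, the precision of a site cannot be stated.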

Other observations

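Of the 259 SLC genes not listed by name, 18 overlapped 17 entries that received no symbol, because the listed gene ends away from the outermost RefSeq end. For 12 of the 18, both 5′ ends were at most 50 bp apart. Among them SLC39A8 and SLC39A14, importers of zinc and manganese, would have pause distances of 42 and 38 bp, SLC44A1, a choline transporter, 13 bp, and SLC25A51, the mitochondrial NAD carrier, 5 bp. SLC35F5 would have 183 bp and SLC35D4 134 bp. In the counts given earlier they are among the other entries.

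The pause distances of the ATP-driven pumps past 100 bp were 142 bp for ATP13A3, 198 bp for ATP8B1, a phospholipid flippase, and 258 bp for ATP7A, the copper pump.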
